A study of Mus musculus with 6 samples.

Results

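The insulin-like growth factor (IGF) axis was followed through 7 genes of alveolar macrophages (AMs), the resident macrophages of the lung airspaces. These were the ligand gene Igf1, the binding protein gene Igfbp4, the receptor genes Igf1r, Insr and Igf2r, and the adaptor genes Irs1 and Irs2. They were taken by gene symbol from a deposited table of 24341 genes, in which all 7 were found. The AMs came from the bronchoalveolar lavage of female C57BL/6 mice aged 6 to 10 weeks. Of the 6 samples, 3 were from CD44+/+ mice and 3 were from CD44-/- mice, in which the gene of the hyaluronan receptor CD44 is disrupted. The labels give this genotype for the mouse and not for AMs alone. Each sample was pooled from a small number of mice, which by the study's methods was not the same for all pools. The cells were treated with a lysis buffer for red blood cells, with no sorting step described. The error given here is thus the spread between pools. Values are FPKM, in which the authors divided sequenced fragments by transcript length and by library size, and differences are CD44-/- minus CD44+/+ on the scale log2(FPKM + 0.1).

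IGF1 and insulin act through a pair of closely related receptor tyrosine kinases, the IGF1 receptor and the insulin receptor. The activated receptors phosphorylate the adaptors IRS1 and IRS2, which dock the lipid kinase PI3K and so lead to Akt, mTOR and the FoxO factors, while a parallel branch runs through Ras and ERK. IGFBP4 binds IGFs outside the cell and limits their access to the receptor. IGF2R has no kinase. It removes IGF2 from the cell surface and carries enzymes tagged with mannose 6-phosphate to lysosomes. Macrophages of many tissues make IGF1, and in the lung macrophage-derived IGF1 is known for its effects on neighbouring epithelial cells and fibroblasts.

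The promoter of Igf2r is shown because this receptor gene was one of the 2 members whose samples did not overlap between genotypes, and because its window had a feature in common with the windows of both adaptor genes. RefSeq windows of GRCm38.p6 were found for 6 of the 7 members, without Insr. In the 250 bases before the RefSeq start, CACGTG (the palindromic E-box, the same on both strands) occurred at 2 places for Igf2r and at 1 place each for Irs1 and Irs2. It was absent from the windows of Igf1, Igfbp4 and Igf1r. Among all 32851 promoter windows of this length, 6.02% held CACGTG and 0.429% held it at 2 or more places. CACGTG contains a CpG, and the windows of Igf2r, Irs1 and Irs2 were richer in CpG (27, 28 and 34) than the median window (6), so these shares come from windows of another base composition. The Igf2r window, on the minus strand at chr17:12769707-12769956, reads 5′ to 3′ as follows, with CACGTG in capitals.
Igf2r: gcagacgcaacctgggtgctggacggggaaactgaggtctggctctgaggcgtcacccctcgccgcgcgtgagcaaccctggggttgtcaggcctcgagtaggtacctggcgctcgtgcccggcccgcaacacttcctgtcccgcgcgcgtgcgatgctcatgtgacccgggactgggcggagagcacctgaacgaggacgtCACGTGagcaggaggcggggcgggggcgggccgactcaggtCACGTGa

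The sites with their nearest bases, which show what the windows share, are given next. The first Igf2r site began 48 bases before the start, the Irs1 site 115 bases and the Irs2 site 44 bases. All are on the minus strand, at chr17:12769737-12769766, chr1:82291537-82291566 and chr8:11008956-11008985.
Igf2r: gaacgaggacgtCACGTGagcaggaggcgg
Irs1: cagaggctccgtCACGTGttttgctcctct
Irs2: gtaacgcagagtCACGTGttgttttgctct
Each of these sites, and the second Igf2r site, was preceded by GT. The longer string GTCACGTG, searched on both strands, was present in 1.85% of all windows. The matches describe these letters, and no binding was measured in this study.

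The targeted gene was checked first. In CD44+/+ AMs Cd44 had a mean of 534 ± 6.68 FPKM (SD, n = 3). In CD44-/- AMs it had 53.5 ± 1.87 FPKM (SD, n = 3), which is -3.32 on the log2 scale (standard error 0.05, adjusted p = 4.19e-09). Among 11 AM marker genes in the table, the AM lectin gene Siglecf had 243 to 268 FPKM over the 6 samples. Of the 11, 8 had lower and 3 had higher values in CD44-/- AMs, and none passed an adjusted p of 0.05 in limma. Krt79 (log2 difference -0.38) and Mrc1 (-0.08) were lower and Itgax (0.08) was higher without overlap. Of all genes tested, 4.88% were lower and 6.75% were higher without overlap. The summed level of these markers, mostly Chil3 at 10300 to 14200 FPKM, was 14695 to 17005 FPKM in CD44+/+ samples and 13633 to 17735 FPKM in CD44-/- samples. Depth was estimated from the smallest values, as described under processing, at 16200000 to 21000000 fragments per sample. It was lowest in CD44-/- replicate 2.

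Levels of the 7 members spanned a wide range, and the order of their FPKM was Irs2, Insr, Igf1, Igf2r, Igf1r, Igfbp4 and Irs1. Over the 6 samples Irs2 had 16.8 to 19.8 FPKM, Insr 12.2 to 13.9 FPKM and Igf1 4.86 to 11.7 FPKM. Igf2r (0.326 to 0.845 FPKM) and Igf1r (0.236 to 0.437 FPKM) were neighbours whose ranges overlapped, whereas no other neighbours did. Igfbp4 had 0.085 to 0.177 FPKM. AMs thus held transcripts of the insulin receptor, the adaptor IRS2 and the ligand IGF1 at several FPKM or more, and those of the other 4 members below 1 FPKM. The 4 members that averaged 0.5 FPKM or more, Igf1, Insr, Igf2r and Irs2, entered the genotype comparison with 10800 genes in all, and Igf1r, Igfbp4 and Irs1 did not.

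**Figure D1:**
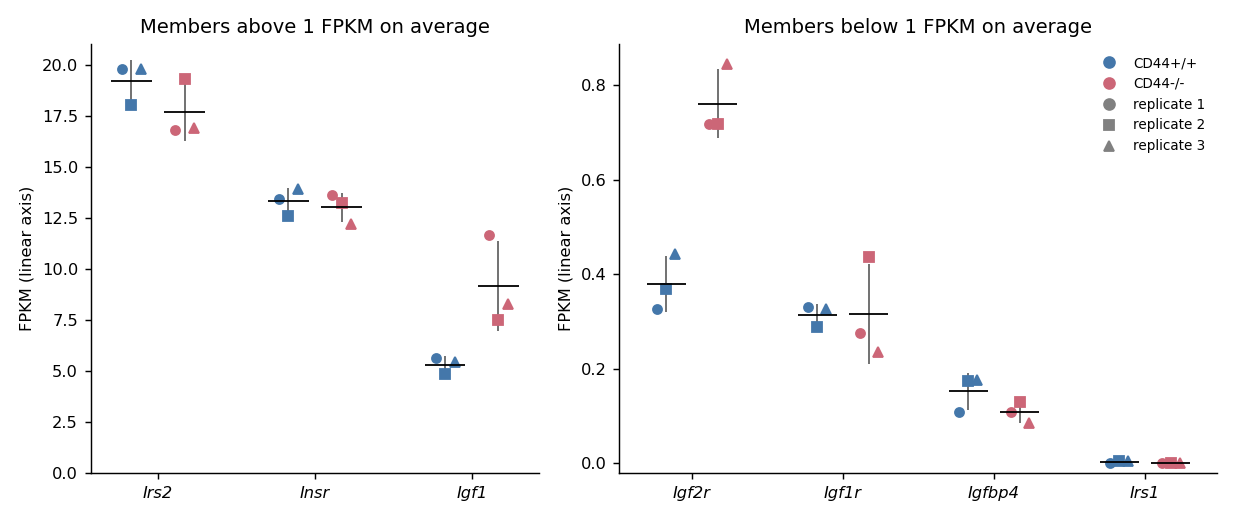
FPKM of the 7 members in each sample on linear axes, with members above 1 FPKM on the left and below it on the right. Points are samples, horizontal bars are means and vertical lines are ± 1 SD (n = 3). The CD44-/- samples of Igf1 (7.51 to 11.7 FPKM) and of Igf2r (0.718 to 0.845 FPKM) all lie above the CD44+/+ samples, and the other genes overlap.

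None of the 4 tested members passed an adjusted p of 0.05 in limma, while 0.111% of all genes tested did (0.0741% higher and 0.037% lower in CD44-/- AMs). With the replicate number as a block it was again none of the 4, against 0.0833% of all genes. Igf1 and Igf2r had an unadjusted p under 0.05, both higher in CD44-/- AMs, as had 4.75% of all genes in that direction and 2.94% in the other. Neither gene overlapped between genotypes, as was so for 6.75% of all genes in that direction and 4.88% in the other. Igf2r reached the minimum of 0.5 FPKM only through the CD44-/- samples (means of 0.380 and 0.761 FPKM), so its place among the tested members depends on its difference, and the share of the 4 is not read against all genes. The study itself picked Igf1 and Igf2r as changed genes on these same samples, with Cuffdiff at a q value under 0.05. That is another test than limma on FPKM, so the calls are not alike. The direction of both genes here is not independent evidence.

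Igf1, the ligand, had 5.64, 4.86 and 5.43 FPKM in CD44+/+ replicates 1, 2 and 3 and 11.7, 7.51 and 8.27 FPKM in CD44-/- replicates 1, 2 and 3. The genotypes did not overlap, and CD44-/- replicate 1 stood highest. The CD44-/- mean of 9.15 ± 2.21 FPKM (SD, n = 3) was 1.72 times the CD44+/+ mean of 5.31 ± 0.406 FPKM (SD, n = 3). The log2 fold change was 0.75 (standard error 0.15, 95% interval 0.40 to 1.10, adjusted p = 0.203). By unadjusted p it ranked 55 of the 10800 genes. In bulk RNA a change in the share of cells that make a transcript and a change in its level per cell cannot be told apart. Igf1 lies on the plus strand of chromosome 10 (GRCm38, 87858265 to 87937042), and the antisense gene Igf1os (87826377 to 87863381) overlaps its start and was not analysed here.

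The gene of the only other ligand with any value, Igf2, had 0 to 0.035 FPKM, and the insulin genes Ins1 and Ins2 were listed at 0 in all 6 samples. Igf1 was therefore the one ligand gene of the family that could be compared.

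Igfbp4 had 0.108, 0.174 and 0.177 FPKM in CD44+/+ AMs. Its CD44-/- values were 0.109, 0.131 and 0.085 FPKM. The groups overlapped, with the lowest CD44+/+ sample beside the CD44-/- samples. These values came out at 4, 6 and 7 fragments in the CD44+/+ samples and 4, 4 and 3 fragments in the CD44-/- samples, each within 0.0632 of a whole number. They use the 2066 bases of the transcript that lie within the locus given by the authors, and the full annotated length of 3831 bases would give more fragments. At 17 against 11 fragments, the ratio of CD44-/- to CD44+/+ after scaling for depth was 0.702, with a 95% interval of 0.297 to 1.59 from an exact binomial (Clopper-Pearson) calculation. This interval covers counting error only and includes 1, so no difference in Igfbp4 was detected. Of the other binding protein genes Igfbp5 alone had a mean above 0.5 FPKM, with 0.442, 0.958 and 0.752 FPKM in CD44+/+ and 0.959, 0.657 and 0.425 FPKM in CD44-/- samples.

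Insr, the insulin receptor gene, had 13.4, 12.6 and 13.9 FPKM in CD44+/+ and 13.6, 13.2 and 12.2 FPKM in CD44-/- samples. The samples of the genotypes were interleaved. Its log2 fold change was -0.03 (standard error 0.07, 95% interval -0.19 to 0.13, adjusted p = 0.972), and its sign turned to 0.01 without CD44-/- replicate 3.

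Igf1r, the receptor with the highest affinity for IGF1, had 0.330, 0.289 and 0.326 FPKM in CD44+/+ and 0.275, 0.437 and 0.236 FPKM in CD44-/- samples. The means were 0.315 ± 0.0226 and 0.316 ± 0.107 FPKM (SD, n = 3), and CD44-/- replicate 2 was the highest of the 6. Estimated fragments were 210 over the CD44+/+ samples and 190 over the CD44-/- samples, a ratio after scaling for depth of 0.982 (95% counting interval 0.802 to 1.20). In each sample Insr was 30.2 to 51.7 times as high as Igf1r in FPKM. Insrr, the gene of a related receptor kinase, was listed at 0 in all samples.

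Igf2r, the IGF2 and mannose 6-phosphate receptor, had 0.326, 0.370 and 0.444 FPKM in CD44+/+ and 0.719, 0.718 and 0.845 FPKM in CD44-/- samples. No sample of one genotype fell among those of the other, and the gap between the groups was larger than the spread within either. The CD44-/- mean of 0.761 ± 0.0730 FPKM (SD, n = 3) was 2.00 times the CD44+/+ mean of 0.380 ± 0.0596 FPKM (SD, n = 3). The log2 fold change was 0.85 (standard error 0.24, 95% interval 0.30 to 1.39, adjusted p = 0.383). At this low level the added constant holds the log2 value down, and with a constant of 1 it was 0.35. Among all tested genes only 1.20% had a lower mean than Igf2r.

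Igf2r rested on an estimated 56, 59 and 81 fragments in the CD44+/+ samples and 123, 101 and 138 fragments in the CD44-/- samples. The sums of 196 and 362 fragments gave a ratio of 2.00 after scaling for depth, with a 95% counting interval of 1.68 to 2.40. This interval does not include the spread between pools. Igf2r is on the minus strand of chromosome 17 (12682406 to 12769664), and the authors' table gives it 1 locus together with Airn, the antisense RNA that starts within it, and Mas1. Airn had 0, 0.0549 and 0.0956 FPKM in CD44+/+ samples. All 3 CD44-/- samples list it at 0. The library kit keeps strand, but whether strand was used in computing FPKM is not given in the sources used here.

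**Figure D2:**
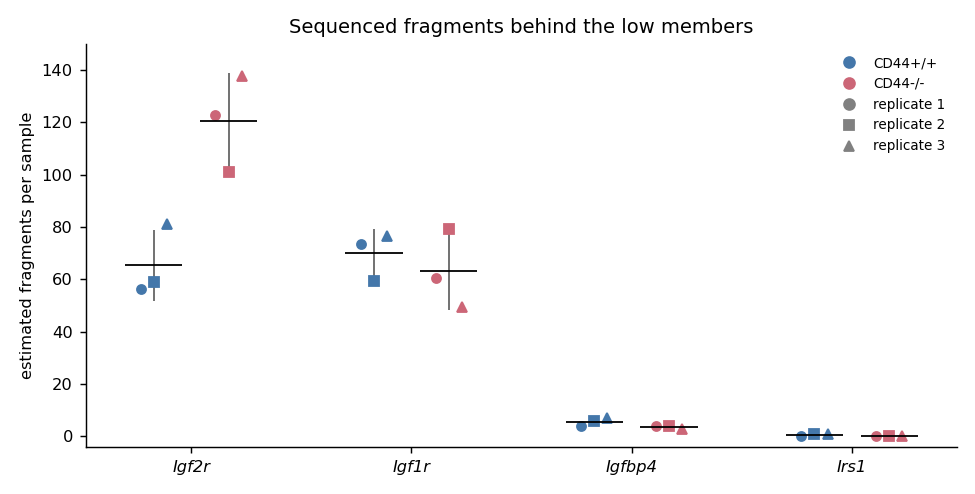
Estimated number of sequenced fragments per sample for the 4 members below 1 FPKM. Points are samples, horizontal bars are means and vertical lines are ± 1 SD (n = 3). Igf2r has 56 to 81 fragments in CD44+/+ and 101 to 138 in CD44-/- samples, while Igfbp4 and Irs1 have no more than 7.

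Irs2, the more abundant adaptor gene, had 19.8, 18.0 and 19.8 FPKM in CD44+/+ and 16.8, 19.3 and 16.9 FPKM in CD44-/- samples. CD44-/- replicates 1 and 3 were below all CD44+/+ samples, and CD44-/- replicate 2 lay between CD44+/+ samples. The log2 fold change was -0.12 (standard error 0.08, 95% interval -0.29 to 0.05, adjusted p = 0.822). Irs1 was listed at 0 in 4 samples and had 0.00611 and 0.00534 FPKM in CD44+/+ replicates 2 and 3. Each of these values came out at 1 fragment, within 0.00266 of the whole number. A count of 0 allows up to 3 fragments, which for Irs1 is 0.0160 to 0.0207 FPKM per sample, so both genotypes were at or under this limit and no fold is given. Of the 42-base windows of the Irs1 transcript, 30.6% also occur in Gm9747, which overlaps it on the other strand, so the Irs1 values and this limit are uncertain. Irs3, an adaptor gene of the same family, had 2.17 to 2.80 FPKM in CD44+/+ and 2.24 to 2.88 FPKM in CD44-/- samples.

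Each of the 5 ratios between members (or between Igf2r and M6pr) was taken within a sample, so that, apart from the added constant, the scaling of that sample cancels. Igf1 was 17.1, 16.8 and 16.7 times Igf1r in CD44+/+ samples and 42.4, 17.2 and 35.1 times in CD44-/- samples. The CD44+/+ samples lay close together, and CD44-/- replicate 2, with its higher Igf1r, was just above them. The mean log2 ratio was 0.78 higher in CD44-/- AMs (exact two-sided permutation test, p = 0.1, adjusted p = 0.167). Igf1 to Igfbp4 was 1.02 higher on the log2 scale, again without overlap (exact permutation p = 0.1, adjusted p = 0.167). This difference was 0.72 with an added constant of 1 and 1.21 with 0.01. It rests on 3 to 7 estimated fragments of Igfbp4 per sample, a gene in which no difference was detected.

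M6pr, the other mannose 6-phosphate receptor gene, was 313.6 to 776 times as high as Igf2r. It had 253, 254 and 250 FPKM in CD44+/+ and 261, 248 and 265 FPKM in CD44-/- samples, in an interleaved order. The log2 ratio of Igf2r to M6pr was 0.81 higher in CD44-/- AMs, without overlap (exact permutation p = 0.1, adjusted p = 0.167), and 0.32 higher with an added constant of 1. Because M6pr was nearly level (log2 fold change 0.03), this ratio repeats the difference of Igf2r and is not separate evidence. With 3 samples against 3 an exact two-sided p cannot go below 0.1. Igf1r to Insr differed by 0.01 on the log2 scale with overlap (exact permutation p = 1, adjusted p = 1). Irs2 to Irs1 differed by -0.07 (exact permutation p = 0.5, adjusted p = 0.625). This last ratio rests on the added constant and on the 2 single fragments of Irs1, and its sign turned with a smaller constant (0.31 with 0.01).

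**Figure D3:**
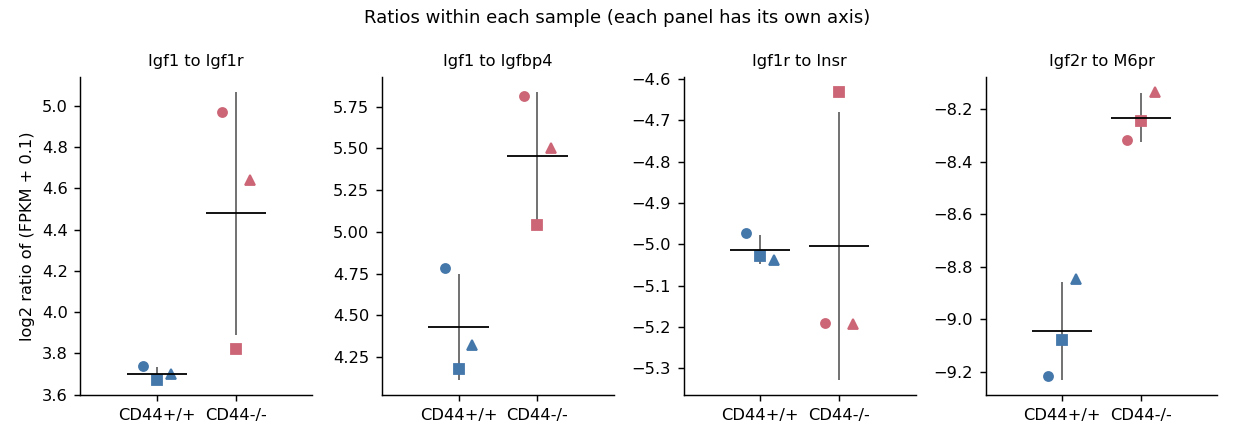
Log2 ratios of (FPKM + 0.1) within each sample for 4 pairs of genes, each panel with its own axis. Points are samples, horizontal bars are means and vertical lines are ± 1 SD (n = 3). The CD44-/- samples lie above the CD44+/+ samples for Igf1 to Igf1r, Igf1 to Igfbp4 and Igf2r to M6pr, by 0.78, 1.02 and 0.81 on average, and not for Igf1r to Insr.

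The rest of the pathway was followed in 12 lists, which held 123 genes besides the members. Of these, 96 were tested and 0 passed an adjusted p of 0.05 in limma. At an unadjusted p under 0.05, 2 were higher and 2 were lower, against 7.69% of all genes tested. Samples separated fully by genotype in 6 of the 96, against 11.6% of all genes tested, with Pik3r3 among the 6. The median log2 fold change of the 96 genes was 0.01, as it was over all genes tested (0.01).

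Among genes that process ligands and receptors, Furin, a convertase that cleaves the insulin receptor precursor, was the most abundant. Its means were 126 ± 3.32 and 129 ± 3.96 FPKM (SD, n = 3) in CD44+/+ and CD44-/- AMs. Ide, the insulin-degrading enzyme, had 21.8, 33.8 and 25.4 FPKM in CD44+/+ and 17.7, 17.9 and 17.8 FPKM in CD44-/- samples. All CD44-/- samples were below all CD44+/+ samples, and CD44+/+ replicate 2 stood highest. The log2 difference of -0.57 had a standard error of 0.14 (adjusted p = 0.289). Pcsk7, another convertase gene, had a log2 fold change of 0.11 with overlap. The other 13 of the 17 genes in this list, Igfbp4 among them, were below the minimum, and 3 of these were at 0 throughout.

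Adaptor genes other than the members varied little. The 10 tested genes of that list had log2 fold changes from -0.12 (Irs2) to 0.06 (Gab1), and the most abundant, Grb2, which links receptors to Ras, had 98.0 ± 2.05 and 99.2 ± 3.22 FPKM (SD, n = 3). Among 8 tested inhibitors of the receptors, Socs1, which turns off cytokine and insulin signalling, had 0.877, 0.580 and 0.229 FPKM in CD44+/+ and 1.34, 1.66 and 0.928 FPKM in CD44-/- samples. The groups did not overlap but came close, with a log2 difference of 1.19 (standard error 0.40, adjusted p = 0.486). Trib3, an inhibitor of Akt, had 2.00 ± 0.375 and 1.48 ± 0.197 FPKM (SD, n = 3). The samples overlapped, and the log2 difference was -0.40 (adjusted p = 0.651). Ptpn1, a phosphatase of the insulin receptor, was the most abundant inhibitor, at 86.9 ± 4.41 and 88.4 ± 9.26 FPKM (SD, n = 3).

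Downstream of the receptors, all 15 genes of the PI3K and Akt list were tested, with a median log2 fold change of 0.03. Akt1, its most abundant gene, had 140.4 ± 6.26 and 140.7 ± 3.63 FPKM (SD, n = 3). Pik3r3, a regulatory subunit of PI3K, had a log2 fold change of 0.42 without overlap (adjusted p = 0.787), and it too reached the minimum only through the CD44-/- samples (0.463 ± 0.0759 against 0.651 ± 0.0584 FPKM, SD, n = 3). In the list of TSC and mTOR genes the 14 values ran from -0.12 to 0.10, with the translation repressor Eif4ebp1 lowest (58.7 ± 1.23 and 53.9 ± 2.38 FPKM, SD, n = 3, without overlap, adjusted p = 0.640). Tbc1d7, a subunit of the TSC complex, was highest there, and Rheb, the GTPase that activates mTOR, had 59.3 ± 2.21 and 58.6 ± 2.54 FPKM (SD, n = 3).

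For the FoxO and GSK3 list the median was 0.11 over 9 tested genes. Foxo1, a transcription factor that insulin signalling keeps out of the nucleus, had 4.81, 4.39 and 4.50 FPKM in CD44+/+ and 5.10, 5.43 and 5.03 FPKM in CD44-/- samples, without overlap (log2 fold change 0.18, adjusted p = 0.687). Foxo3 had a log2 fold change of 0.16 and the kinase gene Gsk3a one of -0.02, both with overlap. In the Ras and ERK list the median of 15 tested genes was -0.03, and no gene was without overlap. Its widest values were those of Dusp6, an ERK phosphatase (-0.31), and Map2k1 (-0.09), while Mapk3, the gene of ERK1, had 307.7 ± 14.8 and 292 ± 8.39 FPKM (SD, n = 3).

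The 16 genes of mannose 6-phosphate sorting, which make the tag or carry its receptors, were all tested and lay between -0.08 (Vps26a) and 0.06, with a median of -0.01. None was without overlap, and the most abundant, Snx1, had 253 to 289 FPKM in CD44+/+ and 268 to 278 FPKM in CD44-/- samples. Ap1m1, of the adaptor complex for these receptors, had -0.07. Of the growth hormone axis, which drives Igf1 in liver, the receptor gene Ghr had 0 to 0.160 FPKM. Cish, a target and inhibitor of STAT5, had 17.6, 18.1 and 14.6 FPKM in CD44+/+ and 19.8, 23.2 and 20.7 FPKM in CD44-/- samples, without overlap (log2 fold change 0.34, standard error 0.10, adjusted p = 0.383). Stat5a had a log2 fold change of -0.05. Of the IGF2 mRNA-binding proteins, Igf2bp2 had 11.9 ± 1.34 and 11.8 ± 1.19 FPKM (SD, n = 3) and Igf2bp3 a log2 fold change of 0.16, both with overlap.

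**Figure D4:**
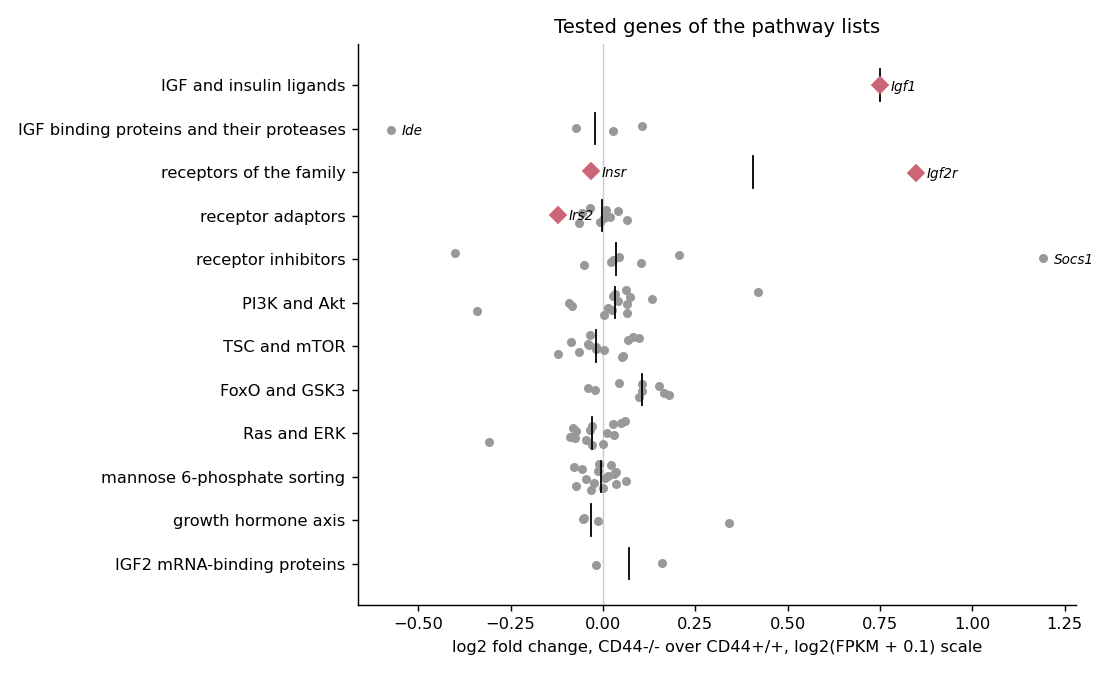
Log2 fold changes of all tested genes in the 12 pathway lists, with members as red diamonds, other genes as grey points and a black line at each list's median. Igf1 (0.75), Igf2r (0.85) and Socs1 (1.19) lie far to the right and Ide (-0.57) to the left, and no gene shown passed an adjusted p of 0.05.

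Igf1 is made by several kinds of macrophage, so markers of other cells were set beside it. Of 12 markers of interstitial or monocyte-derived macrophages, 7 were tested, of which 6 were higher in CD44-/- AMs, 4 of them without overlap (C1qa, C1qc and Mmp12 among them, against 6.75% of all genes tested), and none passed an adjusted p of 0.05. Their median log2 fold change was 0.51. C1qa, of complement C1q, had 2.08, 1.09 and 1.74 FPKM in CD44+/+ and 3.26, 3.06 and 2.78 FPKM in CD44-/- samples. C1qc, of the same complex, had 1.79, 0.813 and 1.36 FPKM in CD44+/+ and 1.87, 2.60 and 2.56 FPKM in CD44-/- samples. The summed level of the list, mostly Csf1r, was 131.5 to 154 FPKM in CD44+/+ and 136 to 140.6 FPKM in CD44-/- samples. Folr2, Lyve1 and Cd163, which mark resident interstitial macrophages, had no more than 0.106 FPKM. CD44-/- replicate 1 was highest in Igf1 and C1qa but lowest of its group in C1qc and Mmp12. The part of these cells in the Igf1 and Igf2r values was not tested.

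**Figure D5:**
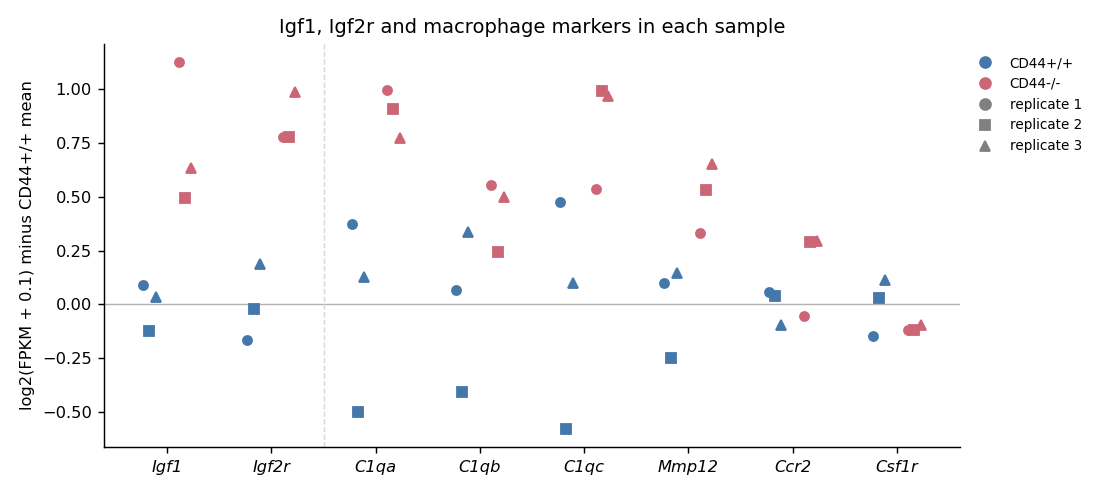
Log2(FPKM + 0.1) of Igf1, Igf2r and 6 of the tested macrophage markers in each sample, minus the CD44+/+ mean of the gene. Igf1 (0.49 to 1.12) and Igf2r (0.78 to 0.98) lie above 0 in all CD44-/- samples, as do all markers shown but Ccr2 in replicate 1 and Csf1r.

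Fibroblasts also make IGF1 and IGFBP4. The 8 fibroblast markers summed to 0.169 to 0.289 FPKM in CD44+/+ and 0.276 to 0.379 FPKM in CD44-/- samples, with Lum at 0 and no single value above that of Npnt in CD44+/+ replicate 1 (0.145 FPKM). The fibroblast sum was highest in CD44-/- replicate 3 (0.379 FPKM), where Igfbp4 was lowest. Among CD44+/+ samples it went the other way, as replicate 1 had the lowest fibroblast sum (0.169 FPKM) and the lowest Igfbp4 (0.108 FPKM). The part of these cells in the Igf1 and Igfbp4 values was not tested. Markers of alveolar type 2 cells summed to 90.7 to 106 FPKM in CD44+/+ and 94.1 to 168 FPKM in CD44-/- samples, where 1 of 6 tested (Sftpb) was higher without overlap, against 6.75% of all genes. Their median log2 difference was 0.45, with 1.44 for Sftpc (with overlap) and 1.24 for Sftpb (adjusted p = 0.591 and 0.369). The highest sum was that of CD44-/- replicate 3, where Sftpc was the largest term at 74.2 FPKM, against 6.83 to 22.8 FPKM in the other samples. All 8 airway secretory markers had lower values in CD44-/- AMs (median log2 difference -0.34), each with overlap. These markers summed to 856 to 1419 and 660.5 to 1156 FPKM, neutrophil markers to 33.6 to 79.4 and 45.8 to 52.7 FPKM, erythroid markers to 2.12 to 17.3 and 2.89 to 56.5 FPKM, and dendritic cell markers to 3.06 to 6.45 and 4.28 to 9.78 FPKM, in CD44+/+ and CD44-/- samples respectively. Of 5 tested neutrophil markers, 1 (Csf3r, log2 difference 0.33) was higher without overlap, against 6.75% of all genes, while 3 had lower values. Markers of T and B cells summed to no more than 2.05 FPKM. The erythroid sum was highest in CD44-/- replicate 2, the sample with the lowest Igf1 and the highest Igf1r of its group. Among CD44+/+ samples it was also highest in replicate 2, which had the lowest Igf1 but also the lowest Igf1r of its group. The part of erythroid cells was not tested.

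The genes whose values over the 6 samples ran closest to those of a member were found by root mean square distance of centred log2 values. For Igf1 they were Fam110b (0.115), A630089N07Rik (0.117) and Crem (0.117), against a median distance of 0.426 over all tested genes. A630089N07Rik reached the minimum only through the CD44-/- samples. Crem, a cyclic AMP-responsive transcription factor gene, had 3.19, 2.69 and 2.85 FPKM in CD44+/+ and 5.46, 3.94 and 3.76 FPKM in CD44-/- samples, with its highest value in CD44-/- replicate 1, as for Igf1. For Igf2r they were Clic6 (0.133), Ier3 (0.133) and Gpr171 (0.137), against a median of 0.454. Gpr171, a G protein-coupled receptor gene, had 3.18, 3.11 and 3.32 FPKM in CD44+/+ and 4.75, 4.99 and 5.41 FPKM in CD44-/- samples. All 6 of these genes were without overlap and higher in CD44-/- AMs, which follows from choosing them for likeness to Igf1 or Igf2r.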

How the data were processed

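RNA of AMs was sequenced in 3 CD44+/+ and 3 CD44-/- samples. Per the labels and the study's methods, the authors aligned the reads (paired ends) with STAR to the mm10 genome, then ran Cufflinks and Cuffdiff. The annotation is not given in the sources used here. The authors deposited FPKM values per gene and sample. The deposited table also holds their pooled means and Cuffdiff results, which were not used. Its gene identifiers and per-sample values are in another order than its gene names and positions (0 rows match), so positions were looked up by gene name, and GENCODE M21 (GRCm38) gave the others. The gene Rapgef6, with 1 missing value, was left out.

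The 10800 genes averaging 0.5 FPKM or more entered limma 3.58.1 in R 4.3.3 as log2(FPKM + 0.1) (lmFit, eBayes with an intensity trend, two-sided, Benjamini-Hochberg over all genes tested). The procedure was tested on simulated data. Depth was estimated from values under 0.03 FPKM. For coding genes with 1 transcript, FPKM times length (less an assumed mean fragment of 200 bases) had its most frequent value in each sample at what was taken as 1 fragment, and 55.5% to 62.0% of these genes lay there. Dividing by it gave fragments of the low members, with each length limited to the locus given by the authors. These are estimates, and intervals from them cover counting error only.

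Genes named were the members, Cd44, list genes that passed the test, the 2 largest changes and the most abundant gene of each pathway list, other ligands or binding proteins with a mean of at least 0.5 FPKM, and the 3 genes nearest in pattern to Igf1 and to Igf2r. Other genes were named after their values were seen. Some genes that this rule or the lists would name are not reported here. Members, lists and tests were chosen with earlier results of these data known. The labels number the samples 1 to 3 in each genotype. Deviations of same-numbered samples from the group means correlated at 0.212, 0.132 and 0.211 across tested genes, so the replicate number was treated as pairing the samples in an alternative with the replicate block. The labels give no batches. Other alternatives were the pseudocount, the minimum, scaling, the eBayes settings, and leaving out each sample in turn.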

Additional observations from a re-analysis of the deposited data

How the results depend on the processing

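Igf1, Igf2r and Irs2 kept their direction, and no member passed an adjusted p of 0.05, under every alternative run, the replicate block included. With the replicate block the adjusted p of Igf1 was 0.116 and that of Igf2r 0.366, the number of genes called was 9 in place of 12, and no call of a member changed. With each sample left out in turn the log2 fold change was 0.56 to 0.88 for Igf1 (adjusted p 0.106 to 0.556), 0.76 to 0.94 for Igf2r (0.294 to 0.909), -0.0711 to 0.0117 for Insr and -0.19 to -0.09 for Irs2. Under the other alternatives the adjusted p was 0.116 to 0.467 for Igf1 and 0.128 to 0.438 for Igf2r, and the log2 fold change of Igf2r was 0.35 with a pseudocount of 1 and 0.99 with 0.01. Igf2r has no value with a minimum of 1 FPKM, since its mean is lower. With no filter on low values, log2 fold changes were -0.02 for Igf1r (adjusted p = 0.997) and -0.27 for Igfbp4 (0.861), and 7 genes were called in all. With single samples left out, 6 to 36 genes were called: 36 without CD44+/+ replicate 1, 7 without CD44+/+ replicate 2, 22 without CD44-/- replicate 1 and 6 without CD44-/- replicate 2, and the cause was not tested. With a pseudocount of 0.01 the difference in the log2 ratio of Igf1r to Insr was -0.0082 and that of Irs2 to Irs1 was 0.31, where the 2 CD44+/+ samples with 1 Irs1 fragment each weigh more. The ratio of Igf1r to Insr went from -0.18 to 0.10 with single samples left out, at -0.0045 without CD44+/+ replicate 3, and was -0.18 without CD44-/- replicate 2. Median-ratio scaling and quantile normalization moved the median of all genes by -0.02 each. Unadjusted calls were 513 higher and 318 lower, against 465 and 440 with median-ratio scaling. Single samples moved these background counts too, to 951 higher without CD44+/+ replicate 1 and 337 higher without CD44-/- replicate 2, and to 203 and 207 lower without CD44+/+ replicate 2 and CD44-/- replicate 3.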

Other observations

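Igfbp7, a binding protein gene with low affinity for IGFs that was named after its values were seen, had 0.221, 0.174 and 0.152 FPKM in CD44+/+ samples and 0.131 and 0.057 FPKM in CD44-/- replicates 2 and 3. In CD44-/- replicate 1, the sample with the highest Igf1, it had 1.23 FPKM. Igfbp3 had 0.315 FPKM in CD44+/+ replicate 2 and no more than 0.022 FPKM in the other samples. Both genes were below the minimum of 0.5 FPKM and were not tested.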
